A study of Homo sapiens with 12 samples.

Results

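The 45 genes described here are DNA replication genes that the E2F transcription factors are known to switch on, followed in HCT116 cells with and without doxorubicin. They were taken by name: a locus of the deposited table was a member when its name held 1 of the 45 symbols and its FPKM (fragments scaled by transcript length and by library size) was at least 1 in at least 2 samples. Of 48 loci that name a member, 46 met this minimum, out of 15833 loci of all kinds that did. All 45 genes kept at least 1 locus. LIG1 kept 2, and its second locus lay close to the minimum, at a median of 0.787 FPKM in untreated samples. The second loci of POLA2 and E2F1, which reached at most 0.601 and 0.323 FPKM in any library, fell below it. The names of 9 of the 46 loci also hold other genes, whose fragments cannot be told apart from the member's: those of GINS2, CDC6, POLA2, POLE, POLD1, POLD3, PRIM1, FEN1 and RRM2.

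HCT116 is an established human colorectal carcinoma line. Cells were transfected with a control plasmid (GFP cells, which the labels give as wild type; the sample titles say GFP and the series text a vector), a flag-tagged NSE4A plasmid (NSE4 cells) or a flag-tagged SMC5 plasmid (SMC5 cells). NSE4A, encoded by NSMCE4A, and SMC5 are subunits of the SMC5/6 complex, a ring-shaped ATPase that acts in DNA repair. All groups were thus plasmid-transfected, and each also kept its own copies of both genes. From 24 h after transfection, cells were given PBS or 1000 nM doxorubicin, an anthracycline that traps topoisomerase II on DNA, for 24 h, which made 6 groups of 2 libraries.

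Before S phase, the origin recognition complex (ORC), CDC6 and CDT1 load the ring-shaped MCM2-7 complex onto DNA. CDC45 and the GINS complex then turn MCM2-7 into the active helicase, after which the replication factor C (RFC) proteins load the sliding clamp PCNA for the polymerases. Most of these genes are transcribed in late G1 and S phase, when cyclin-dependent kinases release E2F factors from the retinoblastoma protein RB. E2F1 and E2F2 activate such genes, and E2F7 and E2F8 repress them. PCNA and E2F7 are also known targets of p53, the transcription factor that DNA damage stabilizes.

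The upstream regions of the members are shown first, because the list is named for a DNA-binding factor. RefSeq (GRCh38.p14) gave 48 windows, from 250 bases before to 50 bases after an annotated start, for 39 of the 45 genes. CCNE2, E2F8, GINS4, MCM4, MCM5 and POLD3 were not matched. Each window was searched on both strands for 4 E2F strings: TTTCCCGC, TTTGGCGC, TTTCGCGC and TTTGCCGC. The strings may overlap, as TTTCGCGC does with its own reverse complement. PCNA and E2F7 had the largest doxorubicin differences of the list, E2F1 is the factor itself, and MCM2 stands for the helicase genes. Capitals mark E2F strings, except in the second PCNA window, where they mark a match to the p53 response element. The windows are, in order, chr20:5126573-5126872, chr20:5119909-5120208, chr20:33686336-33686635 and chr12:77065520-77065819, all on the minus strand, and chr3:127598161-127598460 on the plus strand.
PCNA, window 1: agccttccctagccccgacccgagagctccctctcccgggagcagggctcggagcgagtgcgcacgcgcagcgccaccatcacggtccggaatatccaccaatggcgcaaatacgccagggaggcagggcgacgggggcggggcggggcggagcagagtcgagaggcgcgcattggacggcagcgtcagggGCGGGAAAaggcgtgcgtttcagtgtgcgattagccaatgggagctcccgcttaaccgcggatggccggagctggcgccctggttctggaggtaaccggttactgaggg
PCNA, window 2: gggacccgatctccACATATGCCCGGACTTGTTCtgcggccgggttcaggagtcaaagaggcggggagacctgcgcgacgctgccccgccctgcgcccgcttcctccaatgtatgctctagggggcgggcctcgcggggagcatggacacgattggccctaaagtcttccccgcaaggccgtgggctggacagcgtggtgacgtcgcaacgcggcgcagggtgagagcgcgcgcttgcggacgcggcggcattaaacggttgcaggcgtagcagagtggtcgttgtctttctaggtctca
E2F1: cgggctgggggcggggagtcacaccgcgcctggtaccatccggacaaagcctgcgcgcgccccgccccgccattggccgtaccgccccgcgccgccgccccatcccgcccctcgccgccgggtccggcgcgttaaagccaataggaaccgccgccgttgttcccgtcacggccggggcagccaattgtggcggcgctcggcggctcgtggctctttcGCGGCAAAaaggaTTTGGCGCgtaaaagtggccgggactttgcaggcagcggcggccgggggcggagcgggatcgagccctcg
E2F7: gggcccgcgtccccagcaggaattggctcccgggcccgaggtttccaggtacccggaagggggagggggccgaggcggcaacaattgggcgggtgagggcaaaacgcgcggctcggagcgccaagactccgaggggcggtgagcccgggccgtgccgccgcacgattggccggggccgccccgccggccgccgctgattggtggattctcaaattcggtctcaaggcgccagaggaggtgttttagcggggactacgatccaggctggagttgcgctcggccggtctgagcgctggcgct
MCM2: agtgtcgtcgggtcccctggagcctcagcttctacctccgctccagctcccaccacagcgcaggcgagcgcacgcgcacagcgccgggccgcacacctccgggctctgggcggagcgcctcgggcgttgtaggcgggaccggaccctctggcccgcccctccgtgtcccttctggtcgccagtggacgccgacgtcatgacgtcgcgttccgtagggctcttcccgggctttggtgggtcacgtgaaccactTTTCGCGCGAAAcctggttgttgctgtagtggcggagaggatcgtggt

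An E2F string was found in 22 of the 48 member windows (45.8%), against 3.3% of all 35116 windows. Among the 11258 windows of genes with a tested locus of their own, 4.6% held a string. That set leaves out genes of shared loci, which the member windows include. The 22 member windows with a string belong to 22 different genes. The first PCNA window holds 1 string, starting at position -59 from the start, E2F1 and MCM2 hold 2 each, and the E2F7 window holds 0. MCM2, MCM3, MCM6 and MCM7, the helicase ring genes with a window, all hold at least 1. The second PCNA window holds the only member match to the p53 response element with at most 2 mismatches, at position -236, and 0.6% of all windows hold such a match. CCAAT was found in 60.4% of member windows against 34.6% of all windows. The cell cycle homology string TTTGAA was in 1 member window (RRM1, 2.1%). It was in 15.2% of all windows and in 10.4% of the windows of genes with a tested locus of their own. A match of letters is a description of the window and not a binding site.

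Across libraries, between 23635 and 26185 loci were above 0, and an estimate of depth from the spacing of low FPKM values gave 13.5 to 19.5 M fragments (M, 1000000). NSMCE4A stood at 4069 to 6287 FPKM in NSE4 libraries and 32.6 to 89.4 FPKM elsewhere, and SMC5 at 772 to 979 FPKM in SMC5 libraries and 7.02 to 34.4 FPKM elsewhere. The 2 libraries of doxorubicin-treated SMC5 cells held 1091 identical values above 0, against 0 in each other pair. Their Pearson r over tested loci was 0.998, against 0.973 to 0.977 in the other pairs, so their mean was counted as 1 sample, which left 11 samples. Of 9 colorectal epithelial markers, 7 were at 1 FPKM or more in every library, while VIL1 and CDX1, defining markers of intestinal epithelium, were mostly at or near 0. Of 6 fibroblast markers, COL1A1 was at 15.6 to 27.0 FPKM and the others at 1.21 FPKM or less. Of 4 endothelial markers 3 were found, without PECAM1, and they summed to at most 0.474 FPKM. Hepatocyte and neural markers summed to 3.03 to 5.55 FPKM. Of these only SYP, at 1.30 to 4.31 FPKM, was at 1 FPKM or more throughout. Of the 6 blood markers, 1 was at 1 FPKM or more in every library, the locus that CD14 shares with NDUFA2. It carried nearly all of the blood sum, which was 85.3 to 99.3 FPKM in untreated and 112 to 122 FPKM in treated libraries, and PTPRC and CD3E were at or near 0 throughout. The labels do not say whether paired libraries were grown separately, so p-values speak only to the spread among these libraries, part of which may be technical.

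Replication genes as a group were higher after doxorubicin in each background, with PCNA and E2F7 showing the largest differences. None of the MCM2-7 helicase genes passed the test, although MCM4 and MCM5 were higher in every treated sample than in every untreated one. In GFP cells 24 of 46 member loci rose and 1 fell (limma, Benjamini-Hochberg adjusted p under 0.05), where 17.0% of all tested loci rose and 14.1% fell. In NSE4 cells 25 rose and 1 fell, against 16.3% and 13.9% of all loci. In SMC5 cells, where the lone treated sample widens the error, 16 rose and 1 fell, against 11% and 9.87%. The median member difference on the log2(FPKM + 1) scale was 0.71, 0.73 and 0.69 in the 3 backgrounds, where the median of all loci was 0.02, 0.03 and 0.02. Of the members, 16 rose in all 3 backgrounds, where 9.22% of all loci did so: GINS3, GINS4, CDC6, GMNN, PCNA, RFC2, RFC4, RFC5, FEN1, RRM1, TK1, CCNE2, E2F2, E2F7, DTL and CLSPN. Another 6 rose in 2 backgrounds (MCM10, ORC6, RFC3, LIG1, RRM2 and E2F1) and 5 in 1 (CDC45, ORC1, POLE, POLE2 and CCNE1). The remaining 19 rose in none. Matching shares of all loci were not counted for these last 3 sets. In bulk RNA, more cells that express a gene and more RNA per cell cannot be told apart.

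A plainer view needs no test: in 30 of the 46 loci all 5 treated samples lay above all 6 untreated samples (65.2%), which was so for 22.0% of all loci. In 1 member locus all treated samples lay below, as in 18.6% of all loci, and in the other 15 the ranges overlapped. For MCM2, GINS1, GINS2, POLA2 and SLBP the overlap came from 1 untreated library, NSE4 replicate 2.

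**Figure D1:**
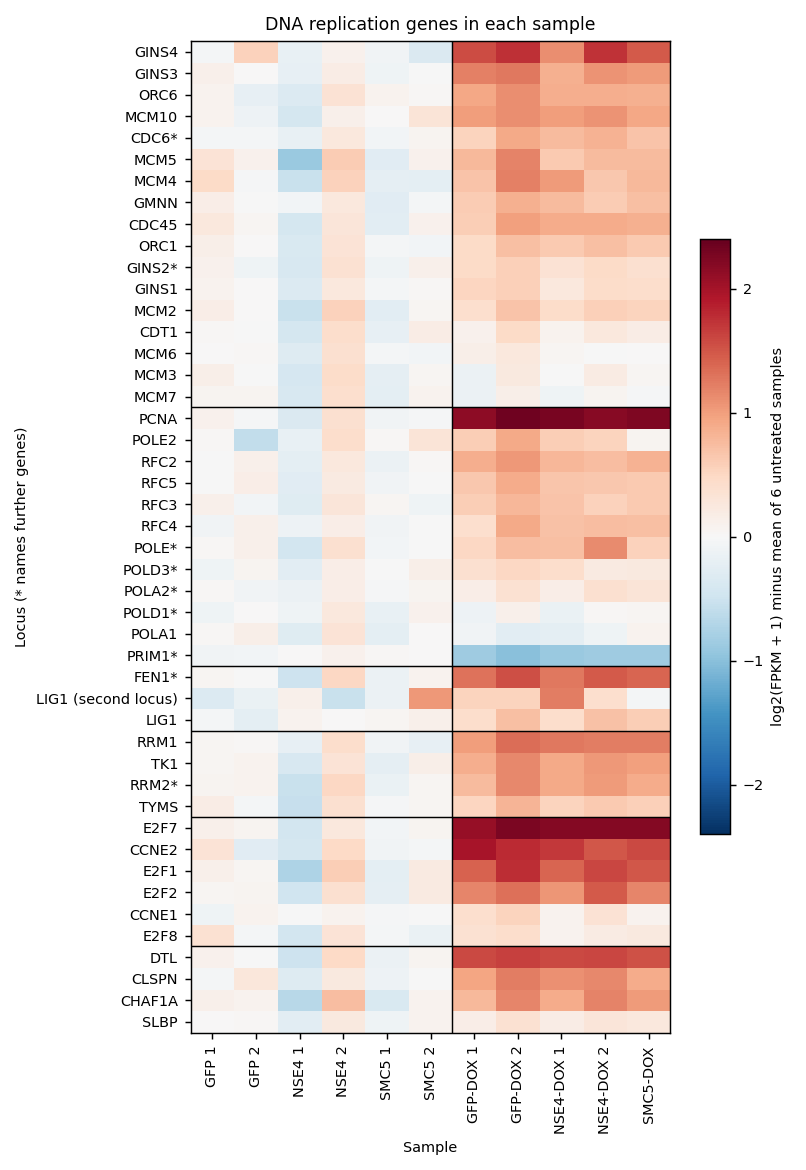
Heat map of the 46 member loci (rows, in blocks by role; an asterisk marks loci that name further genes) in 11 samples (columns); color is log2(FPKM + 1) minus the mean of the 6 untreated samples. PCNA and E2F7 are the darkest rows in the 5 treated samples, the PRIM1 locus is the only row lower in all 5 than in every untreated sample, and NSE4 replicates 1 and 2 differ over most rows.

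The counts depended on single libraries. In GFP cells 16 members were called when either untreated GFP library was dropped, and 13 without GFP-DOX replicate 2. In NSE4 cells they were 16 without NSE4 replicate 1, 16 without NSE4-DOX replicate 1 and 13 without NSE4-DOX replicate 2, and in SMC5 cells 6 without SMC5 replicate 1 and 10 without SMC5 replicate 2. All called members kept their sign in each of these fits. With no minimum FPKM the counts were 10, 9 and 5. Called loci of all kinds also became fewer in GFP and NSE4 cells in this setting, as given in the closing section. PCNA, E2F7, GINS3, RRM1 and the PRIM1 locus kept their call in each background under 9 alternatives (5 other settings and leaving out each of the 4 compared libraries), as did DTL, MCM10, RFC2 and CCNE2 in GFP cells and DTL, CLSPN, MCM10 and GINS4 in NSE4 cells. Every other call was lost under at least 1 of them.

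The origin licensing and helicase genes, 17 loci, gave 6 rises in GFP, 8 in NSE4 and 4 in SMC5 cells, with no falls. Beside these counts, and those of the other roles below, 17.0%, 16.3% and 11% of all loci rose and 14.1%, 13.9% and 9.87% fell. GINS3, a subunit of the 4-part GINS complex, measured 4.69 and 4.23 FPKM in GFP, 3.57 and 4.92 in NSE4 and 3.84 and 4.15 in SMC5 cells. After doxorubicin it measured 11.01 and 11.5 FPKM in GFP, 8.41 and 9.95 in NSE4 and 9.58 in SMC5 cells. Every treated sample was thus well above every untreated one, and the log2 rise was 1.17 (SE 0.15, limma adjusted p = 9.25e-04), 0.97 (SE 0.15, adjusted p = 0.00233) and 1.08 (SE 0.18, adjusted p = 0.00542).

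GINS4, another GINS subunit, was at 13.9 and 21.4 FPKM in GFP, 12.6 and 15.6 in NSE4 and 13.5 and 11.1 in SMC5 cells. With doxorubicin the values were 44.3 and 51.1, 32.1 and 49.9, and 41.5 FPKM. The groups did not overlap, and GINS4 rose by 1.41 (SE 0.25), 1.45 (SE 0.25) and 1.69 (SE 0.31), with limma adjusted p of 0.00414, 0.00373 and 0.00739. GINS1 differed by 0.50, 0.38 and 0.43 and the GINS2 locus by 0.52, 0.42 and 0.38, none of them called.

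MCM10, which helps to activate the loaded helicase, stood at 2.89 to 5.44 FPKM in untreated and 8.90 to 10.2 FPKM in treated samples. By group, the untreated values were 4.48 and 3.77 FPKM in GFP, 2.89 and 4.67 in NSE4 and 4.24 and 5.44 in SMC5 cells. The treated values were 9.35 and 10.2, 9.39 and 9.98, and 8.90 FPKM. Treated and untreated samples did not overlap. The rise was 1.08 in GFP (SE 0.19, adjusted p = 0.0041) and 1.18 in NSE4 cells (SE 0.19, adjusted p = 0.00278), while the SMC5 difference of 0.77 missed the threshold (SE 0.23, limma adjusted p = 0.0502).

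Geminin (GMNN), which binds CDT1 and blocks renewed licensing, was at 26.2 and 23.4 FPKM in GFP, 22.4 and 28.1 in NSE4 and 19.2 and 22.6 in SMC5 cells. After doxorubicin it was at 36.1 and 43.1, 40.3 and 36.3, and 39.3 FPKM, above all untreated samples. It rose by 0.65, 0.59 and 0.88 (SE 0.15, 0.15 and 0.18; limma adjusted p = 0.0123, 0.0189 and 0.0124). CDT1 itself overlapped between treated and untreated samples and differed by 0.27, 0.16 and 0.19, not called. CDC6, whose locus also names RARA, rose by 0.77, 0.76 and 0.69. ORC6 rose by 1.09 in GFP and 0.87 in NSE4 cells, with 0.80 in SMC5 cells not called (adjusted p = 0.0538). ORC1 and CDC45, the helicase cofactor, rose in NSE4 cells by 0.69 and 0.97. Their SMC5 differences of 0.69 and 0.93 and GFP differences of 0.52 and 0.64 were not called.

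The 6 subunits of the MCM2-7 helicase were called in no background. MCM2 measured 29.9 and 27.0 FPKM in GFP, 18.2 and 39.7 in NSE4 and 22.4 and 27.6 in SMC5 cells, and 35.7 and 43.4, 36.4 and 40.3, and 39.3 FPKM after doxorubicin. All treated values exceeded 5 of the 6 untreated ones, and NSE4 replicate 2 lay among them. The MCM2 difference was 0.46, 0.49 and 0.64, with 95% intervals of -0.23 to 1.14, -0.19 to 1.18 and -0.20 to 1.48. MCM4 and MCM5 were higher in all 5 treated samples, at 64.8 to 95.4 FPKM against 27.8 to 60.7 and at 38.6 to 57.3 FPKM against 12.9 to 38.4. Their differences of 0.74 to 0.99 and 0.76 to 0.84 did not pass the test. In GFP cells the SE was 0.34 for MCM4 and 0.41 for MCM5, against a member median of 0.21. The 2 untreated NSE4 libraries, whose gap enters this shared error, were at 27.8 and 60.7 FPKM for MCM4. For MCM5 they were at 12.9 and 38.4 FPKM. MCM3, MCM6 and MCM7 gave differences between -0.07 and 0.18 in every background. For MCM7, the most abundant of the ring genes per length with an untreated median of 91.2 FPKM, the GFP interval ran from -0.61 to 0.47. Changes of that size are within the error of these samples.

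**Figure D2:**
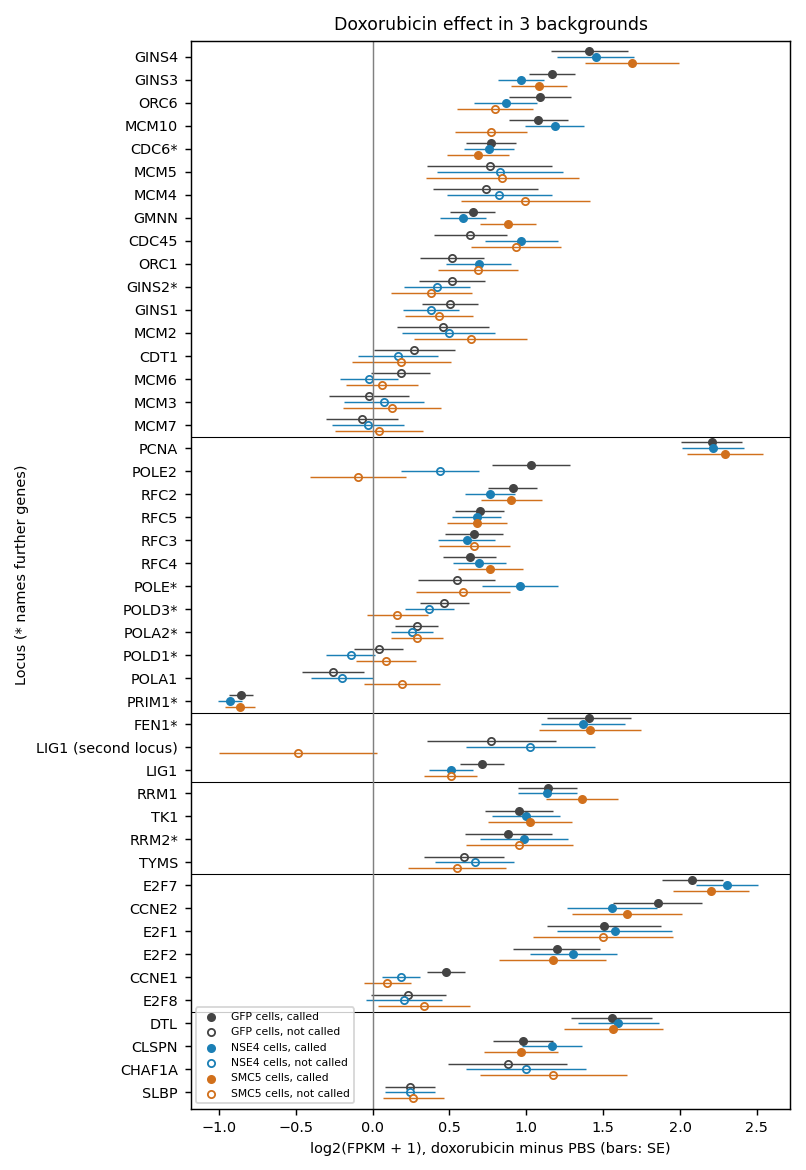
Doxorubicin minus PBS on the log2(FPKM + 1) scale for each member locus (rows, in blocks by role) in GFP, NSE4 and SMC5 cells; bars are SE and filled points passed the limma threshold. PCNA and E2F7 lie beyond 2 in every background, MCM3, MCM6 and MCM7 lie near 0, and the PRIM1 locus is the only one called below 0.

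Among 12 polymerase, clamp and clamp loader loci, 6 rose and 1 fell in GFP and NSE4 cells, and 4 rose and 1 fell in SMC5 cells. PCNA, the sliding clamp, measured 110.0 and 99.9 FPKM in GFP, 80.6 and 134.0 in NSE4 and 96.5 and 100.3 in SMC5 cells. With doxorubicin it measured 458 and 518 FPKM in GFP, 503 and 470.1 in NSE4 and 486 in SMC5 cells. The lowest treated value was thus more than 3 times the highest untreated one. PCNA rose by 2.20 in GFP (SE 0.20, limma adjusted p = 2.12e-04), 2.22 in NSE4 (SE 0.20, adjusted p = 2.08e-04) and 2.29 in SMC5 cells (SE 0.25, adjusted p = 7.88e-04). As a ratio of mean FPKM this was 4.65, 4.54 and 4.94.

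Of the clamp loader subunits, RFC2 rose by 0.91, 0.76 and 0.90, RFC4 by 0.63, 0.70 and 0.77, and RFC5 by 0.70, 0.68 and 0.68, all called. RFC3 rose by 0.66 in GFP and 0.61 in NSE4 cells, with 0.66 in SMC5 cells not called. The catalytic polymerase genes were uneven. POLA1, the catalytic subunit of polymerase alpha, overlapped between treated and untreated samples and differed by -0.26, -0.20 and 0.19, not called. The POLD1 locus (polymerase delta, with 3 further names) differed by 0.04, -0.14 and 0.09. The POLE locus (polymerase epsilon, which copies the leading strand) rose in NSE4 cells by 0.96 (SE 0.25, adjusted p = 0.0216), with 0.55 in GFP and 0.59 in SMC5 cells not called.

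POLE2, the accessory subunit of polymerase epsilon, was at 9.65 and 5.89 FPKM in GFP, 8.16 and 13.0 in NSE4 and 9.65 and 11.8 in SMC5 cells. After doxorubicin it was at 14.7 and 18.5, 14.6 and 14.1, and 9.97 FPKM, so the treated SMC5 sample fell inside the untreated range. It rose in GFP cells by 1.03 (SE 0.25, limma adjusted p = 0.0171), against 0.44 in NSE4 and -0.09 in SMC5 cells, not called.

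The locus that names PRIM1, the primase subunit that makes the RNA primer, was the only member called lower. It measured 634 and 640.5 FPKM in GFP, 676 and 718 in NSE4 and 681 and 674 in SMC5 cells, and 369 and 335, 363 and 369, and 372 FPKM after doxorubicin. All treated samples lay below all untreated ones, and the locus fell by 0.86, 0.93 and 0.86 (limma adjusted p = 2.07e-04, 1.47e-04 and 8.78e-04). Its name also holds NACA, a highly expressed chaperone of nascent proteins, so these values cannot be read as PRIM1.

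Flap processing and ligation is represented by 3 loci. The FEN1 locus (flap endonuclease, shared with FADS2) stood at 26.3 to 52.96 FPKM in untreated and 91.0 to 111 FPKM in treated samples. It rose by 1.41, 1.37 and 1.41. LIG1, which seals Okazaki fragments, rose by 0.71 in GFP and 0.51 in NSE4 cells, with 0.51 in SMC5 cells not called (adjusted p = 0.0729). The second LIG1 locus, low throughout at 0.378 to 3.69 FPKM, was not called, with differences of 0.77, 1.03 and -0.48.

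Of the 4 genes of nucleotide supply, 3 rose in GFP and NSE4 cells and 2 in SMC5 cells. RRM1, the large subunit of ribonucleotide reductase, measured 26.2 and 25.7 FPKM in GFP, 21.9 and 34.1 in NSE4 and 23.8 and 21.9 in SMC5 cells. It measured 51.9 and 65.7, 61.9 and 60.7, and 60.2 FPKM after doxorubicin, with no overlap. Its rise was 1.14, 1.14 and 1.36 (SE 0.19, 0.19 and 0.23; limma adjusted p = 0.00331, 0.00339 and 0.0059). The locus of RRM2, the S phase partner of RRM1, rose by 0.88 and 0.99 in GFP and NSE4 cells, with 0.95 in SMC5 cells not called (adjusted p = 0.089). TK1, thymidine kinase, had the highest untreated level of the members read from a locus of their own, a median of 191 FPKM, and a treated median of 362 FPKM. It rose by 0.95, 1.00 and 1.02. TYMS, which makes thymidylate, was higher in all 5 treated samples, at 70.5 to 87.0 FPKM against 33.4 to 64.3, but its differences of 0.60, 0.66 and 0.55 were not called.

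Cyclin E and the E2F factors gave 5 rises of 6 in GFP, 4 in NSE4 and 3 in SMC5 cells. E2F7, a repressor of the family, measured 3.73 and 3.56 FPKM in GFP, 2.22 and 4.16 in NSE4 and 3.15 and 3.57 in SMC5 cells. With doxorubicin it measured 17.6 and 19.7 FPKM in GFP, 19.1 and 19.1 in NSE4 and 19.0 in SMC5 cells, far above every untreated sample. It rose by 2.08 (SE 0.20, limma adjusted p = 2.63e-04), 2.31 (SE 0.20, adjusted p = 1.66e-04) and 2.20 (SE 0.24, adjusted p = 9.22e-04). As a ratio of mean FPKM its rise was 5.12, 6.00 and 5.66, above that of PCNA in each background. On the log2 scale, where the added 1 FPKM shrinks the difference of a low gene more, E2F7 lay below PCNA in GFP and SMC5 cells. The other repressor, E2F8, was at 1.88 to 4.05 FPKM untreated and 3.16 to 4.23 FPKM treated, and its differences of 0.23, 0.20 and 0.33 were not called.

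E2F1, an activator, measured 9.89 and 9.30 FPKM in GFP, 4.92 and 13.9 in NSE4 and 7.44 and 10.6 in SMC5 cells. After doxorubicin it measured 25.5 and 33.1, 25.1 and 29.1, and 26.9 FPKM, with no overlap with the untreated samples. It rose by 1.51 in GFP (SE 0.37, limma adjusted p = 0.0171) and 1.57 in NSE4 cells (SE 0.37, adjusted p = 0.0147), and the SMC5 difference of 1.50 narrowly missed the threshold (SE 0.46, adjusted p = 0.0504). E2F2, the second activator, rose by 1.20, 1.31 and 1.17.

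Cyclin E activates CDK2 at the entry to S phase, and it has 2 genes. CCNE2 measured 5.45 and 3.28 FPKM in GFP, 2.85 and 6.21 in NSE4 and 3.87 and 3.96 in SMC5 cells. It measured 19.3 and 16.8, 15.6 and 13.5, and 14.5 FPKM after doxorubicin, with no overlap. CCNE2 rose by 1.86 (SE 0.29, limma adjusted p = 0.00237), 1.56 (SE 0.29, adjusted p = 0.00534) and 1.65 (SE 0.35, adjusted p = 0.0143). CCNE1 measured 12.7 and 14.7, 13.7 and 14.6, and 13.6 and 13.6 FPKM untreated, and 18.5 and 20.5, 14.7 and 17.9, and 14.6 FPKM treated. It rose in GFP cells by 0.48 (SE 0.13, adjusted p = 0.0217), against 0.19 and 0.10, not called, in NSE4 and SMC5 cells.

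**Figure D3:**
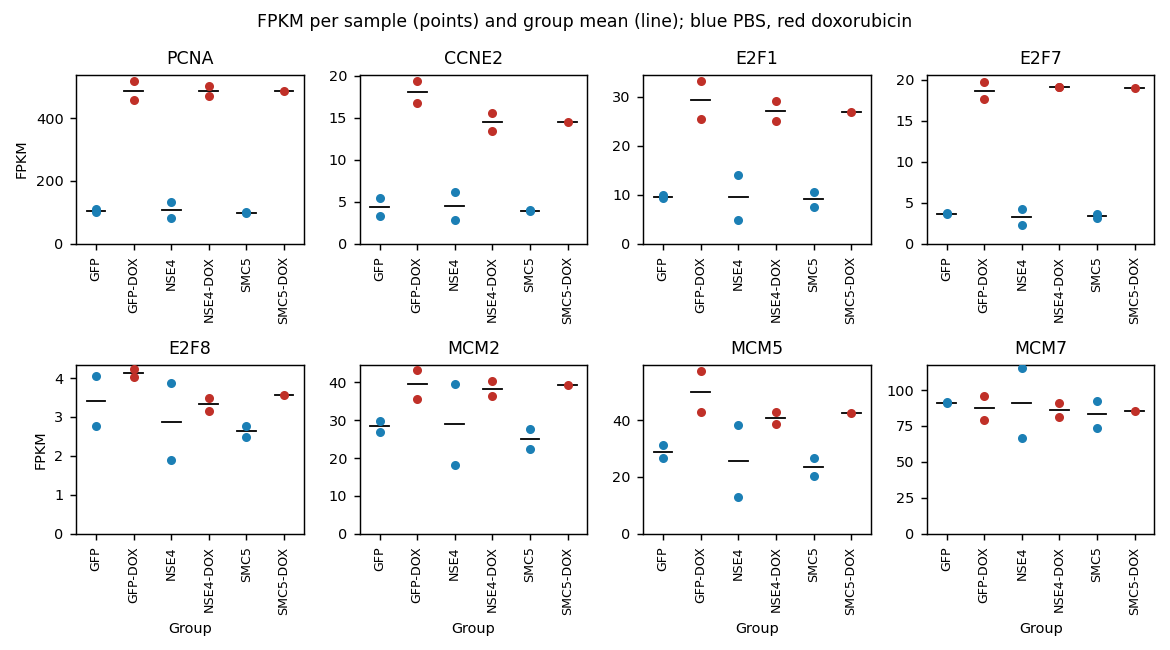
FPKM of 8 members in each sample (points; blue PBS, red doxorubicin) by group, with the group mean as a line and each vertical axis starting at 0. Treated and untreated points are apart for PCNA, CCNE2, E2F1 and E2F7 and overlap for E2F8, MCM2 and MCM7. For MCM5 they nearly touch, with the highest untreated value at 38.4 and the lowest treated at 38.6 FPKM.

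Of the 4 chromatin and checkpoint genes, DTL and CLSPN rose in every background. DTL, which directs the CRL4 ubiquitin ligase to CDT1 and p21 on chromatin, measured 5.26 and 4.83 FPKM in GFP, 3.13 and 7.12 in NSE4 and 4.27 and 5.09 in SMC5 cells. With doxorubicin the values were 16.4 and 17.1, 16.5 and 16.7, and 15.8 FPKM, all above the untreated samples. The rise was 1.56, 1.60 and 1.57 (SE 0.26, 0.26 and 0.32; limma adjusted p = 0.00342, 0.00307 and 0.0124). CLSPN (claspin, a partner of the checkpoint kinase CHK1) rose by 0.98, 1.17 and 0.96. CHAF1A, a subunit of chromatin assembly factor 1, was higher in all treated samples, at 25.3 to 33.8 FPKM against 8.66 to 24.4, but was not called, with an SE of 0.39 to 0.48 on differences of 0.88 to 1.18. SLBP, which binds histone mRNA, differed by 0.24 to 0.27, not called.

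Members rose both with and without an E2F string near the start. In GFP cells 11 of 22 members with a string rose (median difference 0.62). Of 17 members with a window but no string, 11 rose (median 0.88). Among all tested loci 17.0% rose in GFP cells. These are counts without a test. Both sets include members read from loci shared with other genes, such as CDC6 and POLE with a string and FEN1 and PRIM1 without. Single genes went both ways. PCNA, with a string in its first window, had the largest rise in GFP cells (2.20). DTL and E2F1, each with at least 1 string, rose by 1.56 and 1.51. E2F7, with no string in its window, rose by 2.08, while MCM2, MCM3, MCM6 and MCM7, each with at least 1, were not called. A window without a string only lacks an exact match to the strings searched. Whether E2F factors bind these genes was not tested.

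No member was called in a comparison of either plasmid with GFP cells. In NSE4 against GFP cells without doxorubicin 0 of 46 member loci were called by limma and 0 had an unadjusted p under 0.05, where 0.0442% of all loci were called and 452 of 15833 had such a p. With doxorubicin the same comparison gave 0 called and 0 at that p, against 0.0568% of all loci called and 534 at that p. For SMC5 against GFP cells 0 members were called without doxorubicin and 0 had an unadjusted p under 0.05, where 0% of all loci were called and 489 had such a p. With doxorubicin 0 were called and 1 had an unadjusted p under 0.05, against 0.0316% called and 476 at that p. That gene was CCNE1, lower in SMC5 cells by 0.39 (95% interval -0.74 to -0.04, unadjusted p = 0.0344, adjusted p = 1). The median member difference was between -0.09 and -0.04 in these 4 comparisons, where the median of all loci was 0 to 0.01. Without and with doxorubicin, 33 and 31 of 46 member loci were below 0 for NSE4, and 35 and 35 for SMC5 cells. Both plasmids were compared with the same GFP samples, and the share of all loci below 0 was not counted. For NSE4 without doxorubicin, 44 of 46 were above 0 without NSE4 replicate 1, and 5 without NSE4 replicate 2. The sign of the median changed without single libraries in all but the SMC5 comparison without doxorubicin. The intervals allow sizeable differences: for PCNA without doxorubicin they ran from -0.47 to 0.45 in NSE4 and from -0.46 to 0.37 in SMC5 cells, and for E2F1 from -1.03 to 0.68 and from -0.95 to 0.76.

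The doxorubicin difference itself was not called different between backgrounds for any member. Tested as an interaction with limma, 0 of 46 members were called for NSE4 against GFP cells and 0 had an unadjusted p under 0.05, where 0.0316% of all loci were called and 454 had such a p. For SMC5 against GFP cells 0 were called and 1 had such a p, where 0.0189% of all loci were called and 440 had it. That gene was POLE2, whose doxorubicin difference was lower in SMC5 than in GFP cells by 1.12 (SE 0.40, 95% interval -2.04 to -0.20, unadjusted p = 0.0227, adjusted p = 1). For PCNA the difference between backgrounds was 0.01 (95% interval -0.64 to 0.66) for NSE4 and 0.09 (-0.64 to 0.82) for SMC5 cells. For CCNE2 it was -0.30 (-1.24 to 0.64) and -0.20 (-1.25 to 0.85), and for CCNE1 -0.29 (-0.70 to 0.11) and -0.38 (-0.84 to 0.07). Members called in 1 or 2 backgrounds are therefore not shown to respond differently there.

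The 2 untreated NSE4 libraries lay on opposite sides of the other untreated samples for most members. In 35 of 46 loci (76.1%) NSE4 replicate 1 was the lowest and NSE4 replicate 2 the highest of the 6 untreated samples, which was so for 10.7% of all loci. The member loci that name 1 gene summed to 717 FPKM in NSE4 replicate 1 and 1199 FPKM in NSE4 replicate 2, against 831 to 990.4 FPKM in the other 4 untreated libraries and 1755 to 2102 FPKM in the treated ones. Replicate 2 was higher than replicate 1 in 44 of 46 loci, with a median difference of 0.68, where 60.3% of all loci were higher and their median was 0.07. In the GFP-DOX pair replicate 2 was likewise higher in 43 of 46 member loci, and in 65.1% of all loci. In the other pairs the member median was -0.05 in GFP, 0.14 in SMC5, 0.24 in GFP-DOX and 0.11 in NSE4-DOX. With values rescaled by the median ratio to a common scale the NSE4 median was 0.60. The 23 genes of the G2/M and mitosis list differed by a median of 0.24 between the same libraries.

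Among loci higher in replicate 2, the widest gaps were in MCM5 (12.9 and 38.4 FPKM, a ratio of 2.97), E2F1 (4.92 and 13.9, a ratio of 2.83) and CHAF1A (8.66 and 24.4, a ratio of 2.82), while CCNE1 (13.7 and 14.6) and LIG1 (22.6 and 21.5) were nearly level. The locus of mitochondrially encoded genes took 33.0% of the summed FPKM in NSE4 replicate 1 and 23.6% in replicate 2, against 16.6 to 27.5% in the other libraries, and its part in the gap was not tested. The gap enters the spread of every comparison, because all groups share 1 estimate. With both untreated NSE4 libraries left out, a choice made after seeing the data, 36 members were called in GFP cells (35 higher) and 29 in SMC5 cells (28 higher). In that fit 17.4% and 11.3% of all loci rose and 14.1% and 9.85% fell, close to the shares with all libraries. Without NSE4 replicate 1 the median NSE4 minus GFP difference of the members without doxorubicin was 0.28, and without NSE4 replicate 2 it was -0.39. The median doxorubicin difference in NSE4 cells was 0.44 without replicate 1 and 1.02 without replicate 2.

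**Figure D4:**
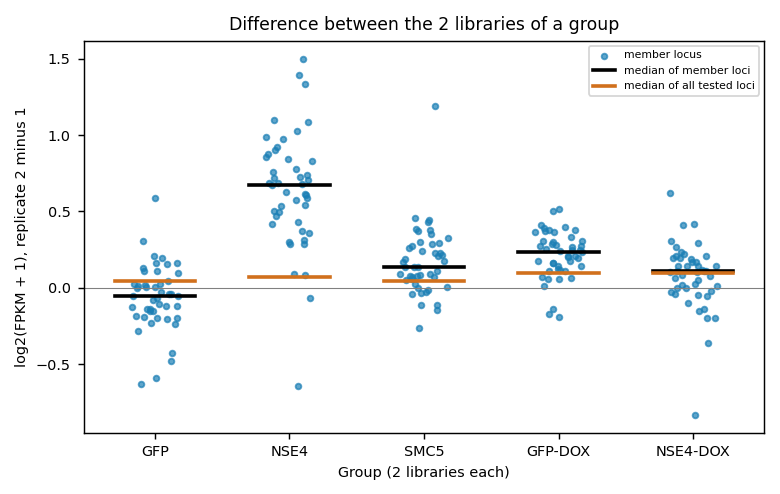
Difference between the 2 libraries of a group, replicate 2 minus replicate 1 of log2(FPKM + 1), for the 46 member loci (points) in 5 groups, with medians of members (black) and of all tested loci (orange); the near-identical SMC5-DOX pair is not drawn. Members of the untreated NSE4 pair center on 0.68, against -0.05 to 0.24 in the other 4 pairs.

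Among 32 other replication genes, 11 rose and 2 fell in GFP cells, 9 rose and 3 fell in NSE4 and 9 rose and 1 fell in SMC5 cells, with a median difference of 0.20, 0.25 and 0.14. Over all loci, 17.0%, 16.3% and 11% rose and 14.1%, 13.9% and 9.87% fell in the same 3 comparisons. ASF1B, a histone chaperone that works with chromatin assembly factor 1, rose by 1.50 in GFP and 1.59 in SMC5 cells, and was also called higher in NSE4 cells. RPA1 and RPA2, which coat single-stranded DNA, rose by 0.52 and 0.65 in GFP cells. DBF4, the activator of the CDC7 kinase that fires origins, fell by 0.77 in GFP and 0.75 in NSE4 cells.

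Of 21 E2F, RB and DREAM complex regulators, 6 rose and 2 fell in GFP, 5 rose and 2 fell in NSE4 and 3 rose and 2 fell in SMC5 cells, with medians of 0.18, 0.25 and 0.13. Over all loci, 17.0%, 16.3% and 11% rose and 14.1%, 13.9% and 9.87% fell in the same 3 comparisons. In SMC5 cells the counts of regulators are near these shares. CDKN1A (p21), which inhibits the kinases that release E2F, rose by 1.61, 1.68 and 1.65, from 292 to 359 FPKM in untreated to 906 to 1131 FPKM in treated libraries. RB1 rose by 0.65, 0.52 and 0.59, and LIN9, a DREAM subunit, by 0.89, 0.91 and 1.05. SKP2, a ubiquitin ligase subunit that targets p27, fell by 0.70, 0.84 and 0.94. Of 7 p53 targets with roles near replication and repair, 6 rose in each background, where 17.0%, 16.3% and 11% of all loci rose. RRM2B, the p53-induced partner of RRM1, rose by 2.04, 2.05 and 2.09.

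Of 23 genes of G2/M and mitosis, 2 rose and 6 fell in GFP, 1 rose and 5 fell in NSE4 and 0 rose and 4 fell in SMC5 cells, with medians of -0.05, -0.26 and -0.26. The shares of all loci that fell were 14.1%, 13.9% and 9.87%, and those that rose 17.0%, 16.3% and 11%. CDC20, the activator of the anaphase-promoting complex, fell by 0.87, 0.90 and 1.06, and KIF20A, a kinesin of cytokinesis, fell by 1.00, 1.02 and 1.14. The replication and mitotic lists were not tested against each other.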

How the data were processed

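Messenger RNA was measured in 12 libraries of 6 groups. The deposited table holds FPKM values for 57908 loci. TopHat and Cufflinks made them, per the submitters' processing notes. The genome build was not given in the sources used. FPKM values were tested as log2(FPKM + 1) with limma 3.58.1 in R 4.3.3, with all 6 groups in 1 fit of 11 samples, a prior variance that followed the mean level, and 5 residual degrees of freedom. Loci with at least 1 FPKM in at least 2 samples were kept (15833). Benjamini-Hochberg adjustment ran over all of them within each of 9 comparisons, with a threshold of 0.05, to which "rose", "fell" and "called" refer. The fit was tested on simulated data. Differences are log2(FPKM + 1) differences, which understate changes of low genes. Figures were drawn with matplotlib 3.10.9, and values tabulated with pandas 2.3.3 under Python 3.11.15.

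The members and the 4 further gene lists were chosen with earlier results of these data known. All members are accounted for by role. Values per sample are given for up to 6 called members per direction and comparison with the smallest adjusted p, for PCNA, CCNE2, MCM2 and E2F1, and, chosen after their values were seen, for POLE2 and CCNE1. Alternatives were another pseudocount, no filter, 2 scalings, a replicate block and leaving out each library.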

Additional observations from a re-analysis of the deposited data

How the results depend on the processing

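No called member difference changed sign under any alternative run, and no member was called in a plasmid comparison or interaction under any of them. The median of the members changed sign when single libraries were left out in 5 of these 6 comparisons, and not in SMC5 against GFP cells without doxorubicin (-0.15 to -0.02). With no filter on FPKM, members called fell to 10 in GFP, 9 in NSE4 and 5 in SMC5 cells, from 25, 26 and 17. Called loci of all kinds also became fewer in GFP and NSE4 cells, as given below. The cause was not tested. Leaving out each compared library in turn gave 13 to 23 in GFP, 13 to 34 in NSE4 and 6 to 21 in SMC5 cells, where fewer samples enter. With both untreated NSE4 libraries left out, a choice made after seeing the data, 29 were called in SMC5 cells. A pseudocount of 0.1, quantile normalization and median-ratio scaling gave 25 to 26 in GFP, 26 to 27 in NSE4 and 16 to 23 in SMC5 cells. Over 9 alternatives of each comparison, 9 of 25, 9 of 26 and 5 of 17 calls held throughout, among them PCNA, E2F7, GINS3 and RRM1 in each background.

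Over all tested loci, the deviations of same-numbered samples were nearly uncorrelated, at -0.039 to 0.073 over 10 pairs of groups. That measure cannot show a shift carried by the member loci alone. Of 46 member loci, replicate 2 was higher in 44 in NSE4, 43 in GFP-DOX, 37 in SMC5, 33 in NSE4-DOX and 18 in GFP cells. With a replicate block, 28, 27 and 21 members were called. For this block, the other pseudocount and the 2 scalings, counts over all loci are not given here. A change particular to the members is therefore not shown.

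Over all loci, 4919, 4780 and 3310 were called, against 3088 in GFP and 3017 in NSE4 cells with no filter. The same setting took the plasmid counts without doxorubicin from 7 to 24 (NSE4) and 0 to 21 (SMC5), those with it from 9 to 166 and 5 to 804, and the interactions from 5 to 151 and 3 to 762. Without single libraries the GFP count was as low as 2956, the NSE4 count 2926 and the SMC5 count 1798. Depth of 13.5 to 19.5 M fragments and 5 residual degrees of freedom limit what can be called.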
